A study of Mus musculus with 5 samples.

Results

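The HoxC cluster is the run of 9 homeobox genes on mouse chromosome 15 from Hoxc13 to Hoxc4, and its DNA methylation was compared among 5 libraries of reduced representation bisulfite sequencing. This method reads the methylation of cytosines in CpG pairs, mostly in CpG-rich DNA, after an enzyme digest and bisulfite conversion. The members were taken by name, 9 of 20661 autosomal protein coding genes in the RefSeq gene table, each with 1000 bp on both sides, together with every cytosine from chr15:102921131-103036856 (mm10) in tiles of 1 kb. The rule is by name and position and uses no methylation value. The libraries were 1 of muscle, labelled as the control, and 4 of teratomas, labelled P5_2iL, P5_2iL_F, P5_a2iL_1 and P5_LCDM_1 after the culture of their embryonic stem cells. A teratoma is a tumour of mixed differentiated tissue that pluripotent cells form. Per the study's design text, the cells had been placed into tetraploid embryos. All 5 samples, the control included, had the strain C57BL/6x129S6. Each group was 1 library with no replicate, the labels do not spell out the culture names, and the sources used here give no ages, no number of animals and nothing on pooling. Differences below are therefore between libraries, without a test.

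Hox genes encode transcription factors that give cells their position along the body axis, and their order on the chromosome follows the order of the body regions in which they act. Low-numbered members such as Hoxc4 and Hoxc5 act in the neck and upper trunk, and high-numbered members such as Hoxc12 and Hoxc13 act toward the tail and in skin appendages. The clusters are rich in CpG and are usually kept free of DNA methylation, under Polycomb or trithorax proteins. Between Hoxc12 and Hoxc11 lies Hotair, a long noncoding RNA, and the cluster also holds the microRNA genes Mir196a-2 and Mir615.

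The 2 kinds of short element with sequence in the RefSeq tables (GRCm38.p6, the build of mm10) were the Hoxc4 promoter, the 1 promoter of the 9 genes matched there, and the mature arms of Mir615. The promoter is shown because it places measured CpG pairs right before a transcription start. It spans chr15:103034145-103034394 on the plus strand, the 250 bases before that start, and lies inside the Hoxc4 gene of the gene table (103018097 to 103036856). It holds 8 CG pairs, and the 3 in capitals were measured in all 5 libraries, 60, 42 and 20 bases before the start.
Hoxc4 promoter: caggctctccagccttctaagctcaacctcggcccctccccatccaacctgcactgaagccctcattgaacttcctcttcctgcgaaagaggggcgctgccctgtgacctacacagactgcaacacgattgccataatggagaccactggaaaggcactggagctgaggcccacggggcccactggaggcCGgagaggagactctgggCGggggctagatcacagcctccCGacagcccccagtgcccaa
The mature arms of Mir615, which lies within Hoxc5, are shown because the hairpin was unmethylated wherever all 5 libraries measured it, with the seed (bases 2 to 8) in capitals, at chr15:103014926-103014947 and chr15:103014969-103014990 on the plus strand.
mmu-miR-615-5p: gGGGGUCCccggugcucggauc
mmu-miR-615-3p: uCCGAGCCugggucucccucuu

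The 3 CG pairs of the Hoxc4 promoter averaged 3.33% methylation in muscle, against 15.4% in P5_2iL, 17.5% in P5_2iL_F, 12.7% in P5_a2iL_1 and 19.3% in P5_LCDM_1. Muscle was thus lowest of the 5 libraries here. The pair at 60 bases before the start was at 0% in muscle and 42.9% in P5_LCDM_1, both listed on the plus strand alone. On that strand P5_2iL had 25%, P5_2iL_F 50% and P5_a2iL_1 12.5%, each with 0% on the minus strand. The means of muscle and P5_LCDM_1 thus rest on 1 strand at this pair, and the order of the teratomas depends on it. The pair at 42 bases was at 10% in muscle, 24.6% in P5_2iL, 19.05% in P5_2iL_F, 20.6% in P5_a2iL_1 and 11.6% in P5_LCDM_1. There the plus strand of P5_LCDM_1 (7.14%) was below that of muscle (10%), and its minus strand (16%) above. The pair at 20 bases was at 0% in muscle, 9.19% in P5_2iL, 8.33% in P5_2iL_F, 11.2% in P5_a2iL_1 and 3.57% in P5_LCDM_1. The values of the single pairs overlapped among the teratomas, and 3 pairs are few. Over the tile chr15:103034001-103035000 (50 cytosines) the gap was smaller, with 5.38% in muscle and 6.84% to 10.5% in the teratomas. In the Mir615 hairpin all 4 cytosines listed in every library were at 0% in every library. The highest level of any listed cytosine in the miR-615-5p arm was 50%, in P5_2iL, at a cytosine not listed in all 5 libraries.

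The files listed between 4017125 (muscle) and 5323090 (P5_2iL_F) cytosines, and between 1811 and 2089 of them in the cluster. Their values are percentages without read counts, so the depth behind a level is unknown and no interval could be given. In place of a replicate error, the plus and the minus strand of the same library were read as a pair of measurements. This covers sampling within a library and leaves out the spread between animals. The strands were averaged separately and not matched by CpG pair, with 56 plus and 96 minus cytosines at Hoxc9, for example. A gap between strands therefore also holds differences between positions, and strands that overlap or stand apart are a description, not a test. Over the 9 gene windows the strand spread (root mean square difference of the strands, scaled to 1 strand) was between 1.35 percentage points in P5_2iL and 3.14 in P5_2iL_F. Over autosomal tiles read on both strands, the strands of 1 library were 25 points or more apart in 11.1% of tiles in muscle and 4.88% to 9.78% in the teratomas. For tissue identity, the windows of 20 of 20 skeletal muscle genes (Acta1, Ckm, Myod1 and others) were lower in muscle than in each teratoma, by 25 points or more at 10 in P5_2iL, 9 in P5_2iL_F, 5 in P5_a2iL_1 and 4 in P5_LCDM_1. Of all gene windows, 80.2%, 78.8%, 71.4% and 63.1% were above muscle in that order, and 4.36%, 3.67%, 2.06% and 2.55% were 25 points or more from it in either direction. For other cell types, 6 endothelial genes had median differences from muscle of 13.9, 12.5, 12.5 and -8.01 points in the same order, and 7 blood genes -16.4, -8.90, -0.35 and -7.16, with 0 of each past 25 points. None of the 6 endothelial genes was higher in P5_LCDM_1 than in another teratoma, and Cdh5 and Pecam1 were lower by 25 points or more against P5_2iL_F. The part of such cell types in the results below was not tested. Methylation levels at these genes are not expression. Shares of cells and methylation per cell cannot be told apart in such bulk tissue.

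The cluster was sparsely methylated in every library, with the lowest mean in muscle. Over the 1497 cytosines listed in all 5 libraries muscle averaged 8.33%, P5_2iL 11%, P5_2iL_F 11.5%, P5_a2iL_1 14.8% and P5_LCDM_1 11.9%. On the same basis the autosomes had means of 42.7%, 49.5%, 48.9%, 46.5% and 44.4% over 3079380 cytosines. The order of the cluster therefore did not follow that of the autosomes: P5_a2iL_1 was highest in HoxC and the third highest over the autosomes. The strand means were 8.71% (plus) and 8.21% (minus) in muscle and 14.4% and 15.4% in P5_a2iL_1, while those of the other 3 teratomas lay between 10.3% and 12.9%. Muscle and P5_a2iL_1 stood outside the strand values of the others, and P5_2iL, P5_2iL_F and P5_LCDM_1 overlapped. Over every cytosine a library lists, muscle (10.3%) was closer to P5_2iL (11.1%), P5_2iL_F (11.3%) and P5_LCDM_1 (11.6%).

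The lower mean of muscle came with more cytosines at exactly 0%. These made up 66.7% of the 1497 in muscle, 47.8% in P5_2iL, 46.8% in P5_2iL_F, 44.9% in P5_a2iL_1 and 45.3% in P5_LCDM_1. Cytosines above 50% numbered 53 in muscle, 49, 56 and 51 in P5_2iL, P5_2iL_F and P5_LCDM_1, and 87 in P5_a2iL_1. Muscle thus had more cytosines at 0% than any teratoma, with about as many highly methylated ones as 3 of them. A level of 0% may rest on few reads, and muscle listed the fewest cytosines of the 5 libraries (4017125). The part of read depth in these shares was not tested.

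Levels were lower where listed cytosines lay closer together, in every library. Cytosines listed in any of the 5 libraries were counted, the strands separately. This is the density of measured sites, which can differ from that of CpG in the sequence. Where 20 or more other listed cytosines lay within 100 bp (712 cytosines), the mean was 4% in muscle and 7.82%, 8.35%, 10.9% and 9.06% in P5_2iL, P5_2iL_F, P5_a2iL_1 and P5_LCDM_1. Where fewer than 10 did (248 cytosines), it was 16.3% in muscle and 20.6%, 21.2%, 23.1% and 18.9%. The order of the libraries also differed with position. Within the gene bodies (925 cytosines) muscle had 6.96% against 11.1% to 15.4%, and between genes (572 cytosines) 10.6% against 9.67% to 13.9%. Between the genes muscle fell inside the range of the teratomas.

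**Figure D1:**
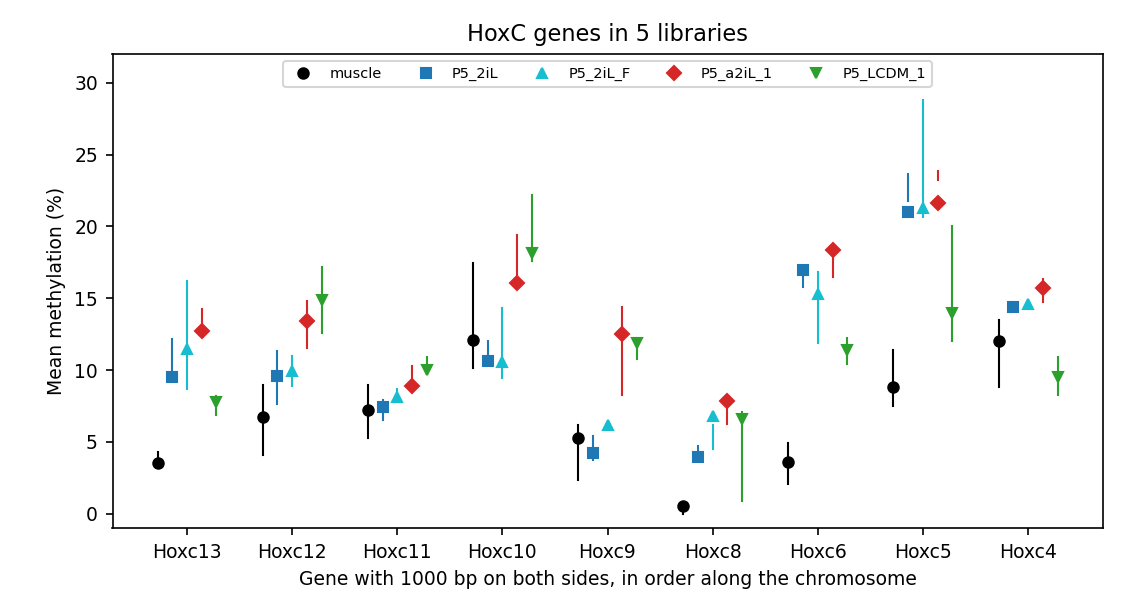
Mean methylation (%) of the 9 HoxC genes with 1000 bp on both sides, in chromosome order, over cytosines listed in all 5 libraries. Markers are libraries, and each vertical line joins the means of the plus and the minus strand, so a marker can lie outside its line where cytosines of unknown strand count; muscle is lowest at Hoxc13, Hoxc12, Hoxc11, Hoxc8, Hoxc6 and Hoxc5, and clearest so at Hoxc6 with 3.60% against 11.4% to 18.3%.

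For the genes, a pair of libraries was called different where their mean levels were 25 points or more apart, over at least 3 cytosines that both list. None of the 9 gene windows reached it in any of the 10 pairs of libraries. Of all gene windows the share past 25 points was 4.36% for P5_2iL, 3.67% for P5_2iL_F, 2.06% for P5_a2iL_1 and 2.55% for P5_LCDM_1 against muscle. It was 0.436%, 1.52% and 3.59% for P5_2iL_F, P5_a2iL_1 and P5_LCDM_1 against P5_2iL, 1.18% and 3.28% for P5_a2iL_1 and P5_LCDM_1 against P5_2iL_F, and 1.87% for P5_LCDM_1 against P5_a2iL_1. With such shares, 0 of 9 is close to the background.

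Below that size the genes did not move alike. The highest-numbered members opened the cluster with low levels in muscle. Hoxc13 (chr15:102921131-102928814), a regulator of hair and nail formation, had 3.50% in muscle, 9.53% in P5_2iL, 11.5% in P5_2iL_F, 12.7% in P5_a2iL_1 and 7.75% in P5_LCDM_1 over 186 cytosines. Its muscle strands (3.22% and 4.28%) lay under the lower strand of P5_LCDM_1 (6.88%), and the strands of P5_2iL, P5_2iL_F and P5_a2iL_1 overlapped from one to the next. The part of Hoxc13 that set P5_a2iL_1 apart was the tile chr15:102927001-102928000, where 52 cytosines had 27.2% in P5_a2iL_1 against 3.93% in muscle, 8.71% in P5_2iL, 13.9% in P5_2iL_F and 8.89% in P5_LCDM_1. In the tile at the first base of Hoxc13 (92 cytosines), by contrast, P5_a2iL_1 had 4.84% and P5_2iL and P5_2iL_F had 10.1% and 10.7%.

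Hoxc12 (chr15:102936826-102938609), a posterior member, had 6.74% in muscle, 9.57% in P5_2iL, 9.93% in P5_2iL_F, 13.4% in P5_a2iL_1 and 14.9% in P5_LCDM_1 over 92 cytosines. The strands of muscle (4.06% and 8.95%) overlapped those of both P5_2iL (7.63% and 11.3%) and P5_2iL_F (8.91% and 10.9%), and P5_a2iL_1 and P5_LCDM_1 lay above with strands that overlapped each other. Hoxc11 (chr15:102954526-102956701), which acts in the hindlimb and lower trunk, varied least of the 9, from 7.24% in muscle over 7.40%, 8.12% and 8.88% to 10.02% in P5_LCDM_1 (103 cytosines). The muscle strands (5.29% and 8.98%) overlapped those of P5_2iL, P5_2iL_F and P5_a2iL_1. Over every cytosine a library lists, muscle instead had the highest Hoxc11 level, 17.4% against 6.15% to 9.65%.

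Hoxc10 (chr15:102966796-102971898), active in the lumbar spinal cord and the hindlimb, was not lowest in muscle. Its levels over 136 cytosines were 12.1% in muscle, 10.6% in P5_2iL, 10.6% in P5_2iL_F, 16.04% in P5_a2iL_1 and 18.2% in P5_LCDM_1. The strands of muscle were wide apart (10.1% and 17.4%) and overlapped those of P5_2iL, P5_2iL_F and P5_a2iL_1. The strands of P5_LCDM_1 (17.6% and 22.2%) lay just above those of muscle and overlapped those of P5_a2iL_1 (16.1% and 19.4%). In the gene body alone P5_a2iL_1 (19.96%) was above P5_LCDM_1 (19.3%). Hoxc9 (chr15:102977032-102984444), a thoracic member, split the teratomas in a similar way, with muscle at 5.27%, P5_2iL at 4.25% and P5_2iL_F at 6.17% against 12.5% in P5_a2iL_1 and 11.9% in P5_LCDM_1 (158 cytosines). The lower strand of the latter pair (8.27%) exceeded the higher strand of the other 3 libraries (6.35%).

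Hoxc8 (chr15:102990539-102994275), which patterns the thoracic skeleton and is the least covered member with 54 cytosines, was nearly free of methylation in muscle at 0.517%. It had 3.94% in P5_2iL, 6.78% in P5_2iL_F, 7.83% in P5_a2iL_1 and 6.62% in P5_LCDM_1. Muscle was under every strand value of the teratomas, the closest being a P5_LCDM_1 strand at 0.889%, and P5_LCDM_1, whose strands were wide apart (0.889% and 7.06%), overlapped the other 3 teratomas. Over every listed cytosine P5_2iL had 10.6% and became the highest.

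Hoxc6 (chr15:102998226-103011882), a member of the lower neck and upper thorax, had the widest range of the 9. It stood at 3.60% in muscle, 16.9% in P5_2iL, 15.3% in P5_2iL_F, 18.3% in P5_a2iL_1 and 11.4% in P5_LCDM_1 over 221 cytosines. The muscle strands (2.07% and 4.89%) were well under the lowest strand of any teratoma (10.4% in P5_LCDM_1). Over cytosines shared by each pair the differences from muscle were 12.1, 10.5, 15.1 and 6.58 points in the order P5_2iL, P5_2iL_F, P5_a2iL_1 and P5_LCDM_1, on both strands upward in each.

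Within Hoxc6 the gap between muscle and the teratomas was uneven. Toward Hoxc5, in the tile chr15:103010001-103011000 (54 cytosines) muscle had 1.62%, P5_2iL 22.4%, P5_2iL_F 14.4%, P5_a2iL_1 26.0% and P5_LCDM_1 11.5%. The tile before it (25 cytosines) had 0.752% in muscle and 12.2%, 18.4%, 19.2% and 10.6% in the teratomas. In the middle of the gene, chr15:103005001-103006000 (25 cytosines) had 2.50% in muscle and 21.1%, 18.95%, 14.8% and 10.9% in P5_2iL, P5_2iL_F, P5_a2iL_1 and P5_LCDM_1. There the minus strand (7 cytosines) was at 0% in muscle and at 1.59% in P5_2iL, whose plus strand had 28.7%. At the other end of the gene, the tile chr15:102998001-102999000 (43 cytosines) had 2.50% in muscle and 6.73% to 8.04% in the teratomas. All 4 tiles were lowest in muscle, with a smaller gap at the end toward Hoxc8.

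Hoxc5 (chr15:103014008-103017429), which takes part in patterning the neck and the motor neurons of the diaphragm, showed a like order. Its 58 cytosines had 8.79% in muscle, 21.02% in P5_2iL, 21.3% in P5_2iL_F, 21.6% in P5_a2iL_1 and 14% in P5_LCDM_1. The muscle strands (7.53% and 11.4%) lay below those of P5_LCDM_1 (12% and 20.03%) by little and below the other 3 by more. Those 3 teratomas had near-equal levels, with strands that overlapped, and P5_LCDM_1 lay between them and muscle. Over every listed cytosine muscle was still lowest (6.00%), and P5_2iL_F had 11.4% and P5_LCDM_1 8.21%. The stretch between Hoxc6 and Hoxc5 (54 cytosines) went the same way, with 7.97% in muscle, 19.9%, 20.7% and 20.5% in P5_2iL, P5_2iL_F and P5_a2iL_1, and 16.3% in P5_LCDM_1.

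Hoxc4 (chr15:103018097-103036856), the gene at the end of the cluster with a further known role in B cells, was the exception on that side. It had 11.99% in muscle, 14.4% in P5_2iL, 14.6% in P5_2iL_F, 15.7% in P5_a2iL_1 and 9.54% in P5_LCDM_1 over 190 cytosines. The strands of muscle (8.82% and 13.5%) overlapped those of P5_LCDM_1 (8.27% and 10.9%) and lay under the lowest strand of the other 3 (14.2%). This order did not hold over the cytosines shared by pairs: there the differences from muscle were -0.08, -2.36, 1.82 and -3.51 points in the order P5_2iL, P5_2iL_F, P5_a2iL_1 and P5_LCDM_1. Over every cytosine listed in a library muscle had 19.2%, above the teratomas at 11.5% to 17.98%. These wider sets take in more cytosines of the last full tile of Hoxc4, where muscle was high.

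Set against all gene windows, the median difference of the 9 genes from muscle was 1.08 points in P5_2iL (3.23 over all windows), 3.19 in P5_2iL_F (3.00), 7.31 in P5_a2iL_1 (1.70) and 5.12 in P5_LCDM_1 (0.92). Of the 9 genes, 5, 6, 9 and 8 were above muscle in that order, where the shares of all gene windows above 0 were 80.2%, 78.8%, 71.4% and 63.1%. P5_a2iL_1 was also above P5_2iL in 9 of 9 genes, by 0.70 to 5.24 points, and above P5_2iL_F in 9 of 9, by 0.05 to 4.78 points. Over all gene windows, 27.5% and 29.97% were above 0 in these comparisons. In 5 and 6 of the 9 genes both strands had that sign, so several of these small differences were within the strand spread. Comparisons with muscle share the muscle library, and those with P5_2iL share that one.

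**Figure D2:**
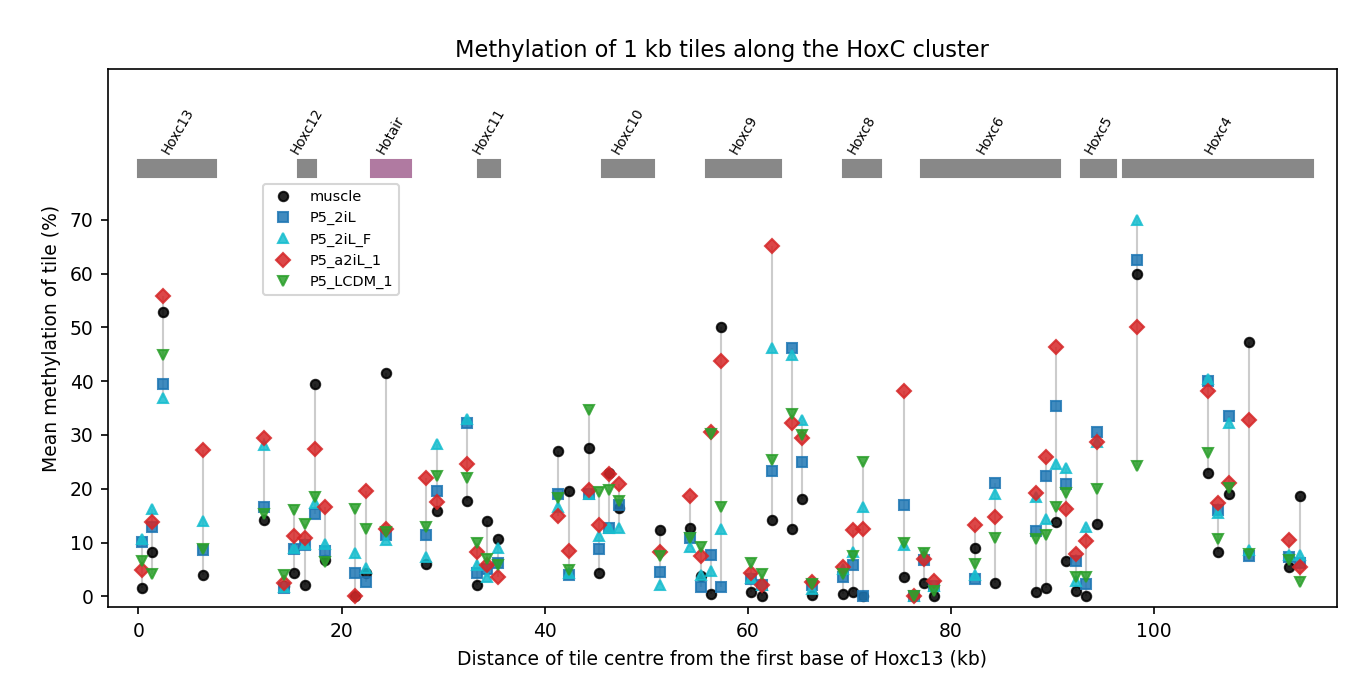
Mean methylation (%) of the 59 tiles of 1 kb with 3 or more cytosines listed in all 5 libraries, against the distance in kb from the first base of Hoxc13. Markers are libraries, grey lines join a tile's lowest and highest value, and bars at the top are the genes and Hotair (purple); most tiles lie under 30%, and muscle stands alone at 41.6% in the tile within Hotair.

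In tiles of 1 kb, 59 of the 116 spanned had 3 or more cytosines listed in all 5 libraries. Of these, 55 were below 50% and 11 below 10% in every library. Muscle was below all 4 teratomas in 34 tiles and above all 4 in 11. P5_a2iL_1 was the highest library in 22 tiles, more than any other. These counts were not taken over all autosomal tiles. By pair, 38 of 60, 42 of 61, 44 of 60 and 42 of 61 tiles were above muscle in P5_2iL, P5_2iL_F, P5_a2iL_1 and P5_LCDM_1. Of all autosomal tiles, 69.5%, 67.2%, 57.6% and 47.7% were above muscle in that order. The tile values give the same picture as the cytosines, with the median tile at 6.79% in muscle and 14.9% in P5_a2iL_1.

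Few tiles differed by 25 points or more, a smaller share than of all autosomal tiles. Against muscle, 4 of 60 tiles did so in P5_2iL (6.67%, beside 21.2% of all autosomal tiles), 6 of 61 in P5_2iL_F (9.84%, beside 20.1%), 7 of 60 in P5_a2iL_1 (11.7%, beside 14.8%) and 7 of 61 in P5_LCDM_1 (11.5%, beside 17.2%). These shares describe the cluster and were not tested. The tiles higher than muscle numbered 1, 2, 5 and 2 in that order, where 17.7%, 16.6%, 11.4% and 9.59% of all tiles were higher. Those lower than muscle numbered 3, 4, 2 and 5, where 3.47%, 3.45%, 3.37% and 7.65% were lower. The higher tiles in P5_2iL, P5_2iL_F and P5_LCDM_1 were thus few beside their background. The lower ones in these libraries were a larger share than their background, on counts of 3 to 5 tiles. A tile can be lower by 25 points only where muscle has 25% or more, and muscle was below 10% in 33 of 59 tiles. The background shares were not limited to tiles with such a level in muscle.

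Both strands passed 25 points, with 3 or more cytosines on each, in 1 tile in P5_2iL, 2 in P5_2iL_F, 1 in P5_a2iL_1 and 1 in P5_LCDM_1. Of all tiles measured on both strands, 12% did so in P5_2iL, 10.7% in P5_2iL_F, 5.74% in P5_a2iL_1 and 6.67% in P5_LCDM_1. Most of the other calls rested on fewer than 3 cytosines on a strand or on strands that disagreed.

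**Figure D3:**
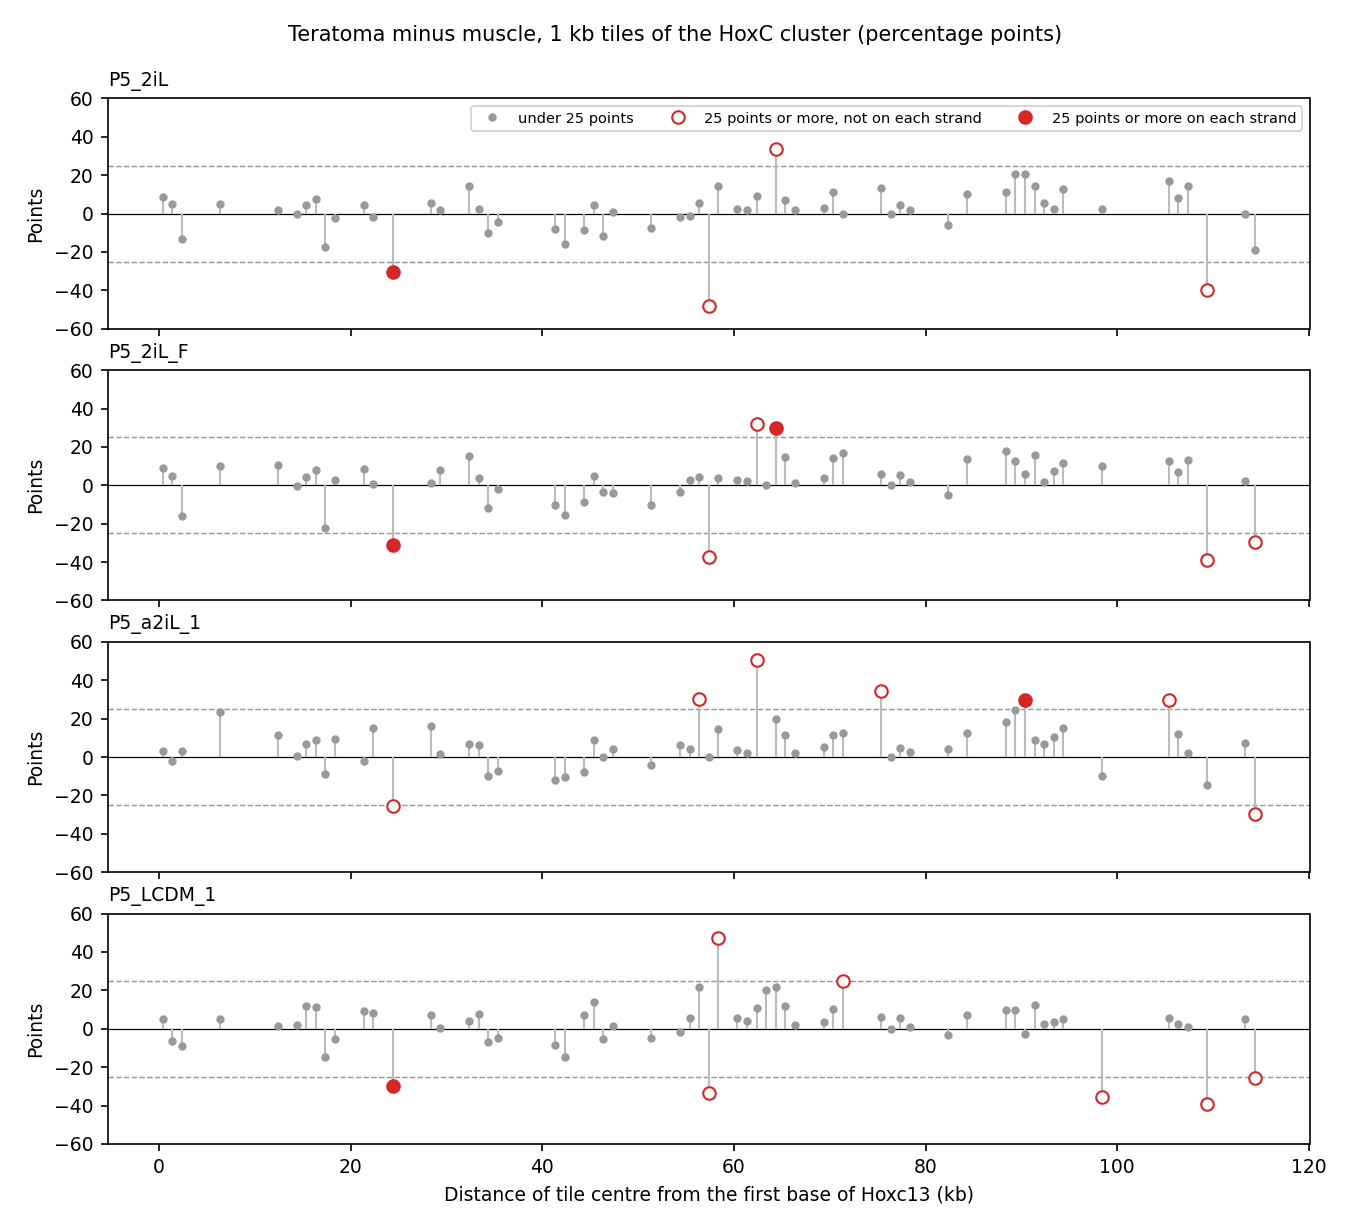
Difference in mean methylation (percentage points), teratoma minus muscle, of each 1 kb tile of the HoxC cluster against its distance in kb from the first base of Hoxc13, 1 panel per teratoma. Grey points are under 25 points (dashed lines), open circles 25 or more over both strands, filled circles 25 or more on each strand; the tile within Hotair is the lowest filled circle in P5_2iL, P5_2iL_F and P5_LCDM_1, at -30.2, -31.1 and -29.7 points.

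The clearest lower tile lay in Hotair, an antisense-oriented noncoding gene known for its links to Polycomb. In chr15:102945001-102946000, 16 cytosines listed in all 5 libraries had 41.6% in muscle, 11.3% in P5_2iL, 10.5% in P5_2iL_F, 12.6% in P5_a2iL_1 and 11.9% in P5_LCDM_1. Muscle stood apart from 4 teratomas that were nearly equal. Over cytosines shared with muscle the differences were -30.2, -31.1, -25.8 and -29.7 points. By strand they were -32.2 and -30.8 in P5_2iL, -38.1 and -28.6 in P5_2iL_F, -40.7 and -19.5 in P5_a2iL_1, and -34.0 and -26.8 in P5_LCDM_1 (plus, then minus).

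The single cytosines of the Hotair tile showed the same. In muscle none of the 17 cytosines that a further library also lists was at 0% and the lowest had 21.2%. In the teratomas 11 of 21 (P5_2iL), 11 of 22 (P5_2iL_F), 9 of 23 (P5_a2iL_1) and 6 of 22 (P5_LCDM_1) were at 0%. These counts take in cytosines that muscle does not list. Over the 16 cytosines listed in all 5 libraries, the shares at 0% were smaller, at 37.5%, 37.5%, 18.75% and 18.75% in the same order. In muscle that share was 0%. The difference was local. With 1000 bp on both sides of Hotair, 51 cytosines had 16.6% in muscle, 6.20% in P5_2iL, 7.84% in P5_2iL_F, 22.5% in P5_a2iL_1 and 14.2% in P5_LCDM_1, so that P5_a2iL_1 passed muscle. It did so on the minus strand alone, by 11.9 points over the cytosines shared with muscle, against -8.28 on the plus strand. A neighbouring tile, chr15:102943001-102944000, had 4.43% in muscle and 19.6% in P5_a2iL_1 over 49 cytosines. Of the 28 minus-strand cytosines between positions 102943002 and 102943384, 7 were at 100% in P5_a2iL_1 and 1 in muscle.

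**Figure D4:**
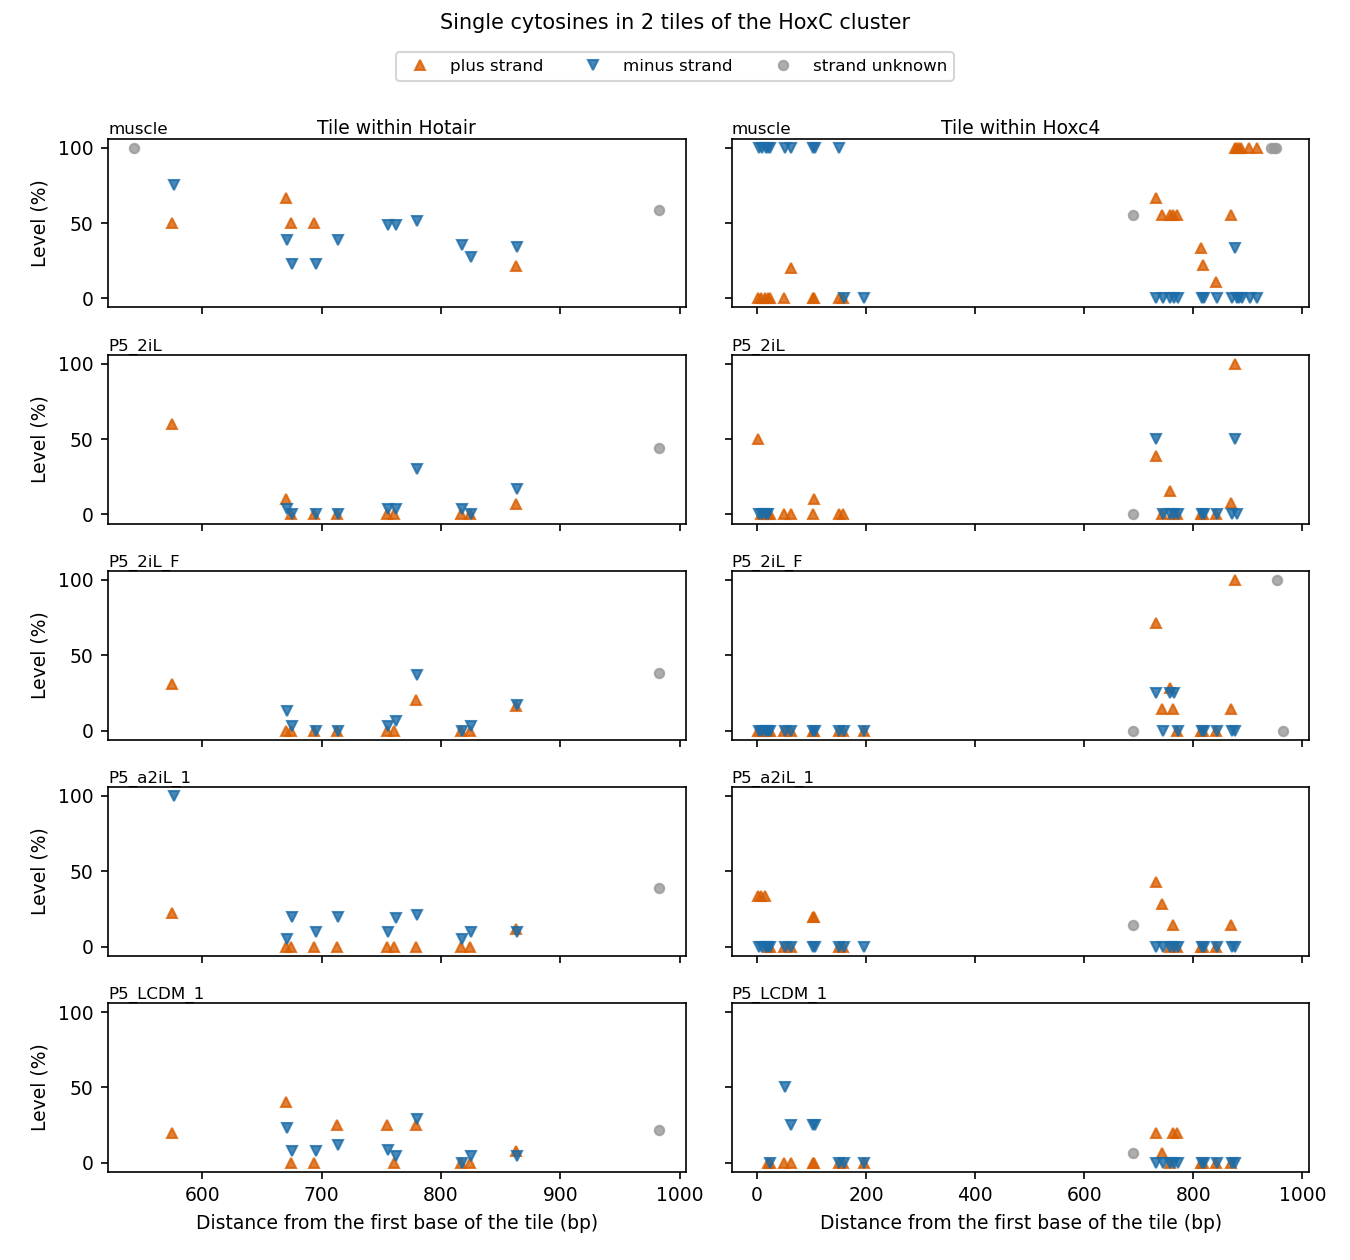
Methylation level (%) of single cytosines in the tile within Hotair (left) and in the last full tile of Hoxc4 (right) against distance in bp from the tile's first base, 1 row per library. Triangles up are the plus strand, triangles down the minus strand and circles cytosines of unknown strand; in Hotair the muscle points of both strands stay at or above 21.2%, while in Hoxc4 muscle has minus-strand points at 100% beside plus-strand points at 0%.

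Hoxc4 held other tiles that were lower than muscle, on less even evidence. In chr15:103035001-103036000 the differences were -29.6 in P5_2iL_F (44 cytosines), -29.4 in P5_a2iL_1 (43) and -25.6 in P5_LCDM_1 (36), with -13.7, -9.56 and -21.4 on the plus strand and -43.6, -47.0 and -28.2 on the minus strand. Over the 28 cytosines listed in all 5 libraries they were -10.8, -13.1 and -15.95 points, so that none of the 3 passed 25. The muscle strands disagreed with each other here. Between positions 103035003 and 103035198 the muscle minus strand averaged 83.3% and the plus strand 1.82%, and between 103035690 and 103035882 the plus strand averaged 51.1% and the minus strand 3.03%. In the 4 teratomas none of these strand means passed 24.3%.

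The tile chr15:103030001-103031000, also in Hoxc4, differed from muscle by -39.8 points in P5_2iL, -38.7 in P5_2iL_F and -39.4 in P5_LCDM_1, each over 5 cytosines. That came from 2 minus-strand cytosines and 1 of unknown strand, each at 66.7% in muscle and at 0% in these 3 teratomas, whereas the plus strand (2 cytosines) had 18.2% in muscle and 18.8%, 21.5% and 19.6% in them. P5_a2iL_1, with 32.8% there, was higher than P5_2iL by 25.2 points (20.2 on the plus and 28.6 on the minus strand). P5_LCDM_1 was lower in 1 further Hoxc4 tile, chr15:103019001-103020000, with 24.2% against 60% in muscle over 3 cytosines, 2 of the plus strand (31.8% against 60%) and none known to be of the minus strand. There P5_2iL, P5_2iL_F and P5_a2iL_1 had 62.5%, 70% and 50%, so that P5_LCDM_1 was lowest.

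P5_a2iL_1 had a higher tile in Hoxc4, chr15:103026001-103027000, with 46.3% against 16.4% in muscle over 7 cytosines. Its plus strand was 49.0 points higher and its minus strand 11.8. Over the 5 cytosines listed in all 5 libraries P5_a2iL_1 (38.1%) did not stand out from P5_2iL (40.0%) and P5_2iL_F (40.4%).

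The higher tile with the most cytosines lay in Hoxc6. In chr15:103011001-103012000, 29 cytosines shared with muscle had 49.4% in P5_a2iL_1 and 19.5% in muscle, a difference of 29.97 points that was 33.8 on the plus strand and 25.2 on the minus strand. Over the 18 cytosines of all 5 libraries it stood at 46.3% in P5_a2iL_1, 35.5% in P5_2iL, 24.5% in P5_2iL_F, 16.7% in P5_LCDM_1 and 13.9% in muscle. Muscle and P5_LCDM_1 were close, and the other 3 were spread out above them.

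Hoxc9 held several small tiles that differed. In chr15:102977001-102978000, at the end of the gene facing Hoxc10, 16 cytosines had 30.5% in P5_a2iL_1 and 30.2% in P5_LCDM_1, against 0.521% in muscle, 7.72% in P5_2iL and 4.68% in P5_2iL_F. The difference from muscle was 29.97 points in P5_a2iL_1 (9.01 on the plus and 39.5 on the minus strand) and under 25 in P5_LCDM_1 over the cytosines shared with muscle. Those levels were uneven within the tile. From 102977620 to 102977763, 4 minus-strand cytosines were all at 100% in P5_a2iL_1, averaged 87.5% in P5_LCDM_1 and were at 0% in muscle. With both strands and unknown ones, P5_a2iL_1 averaged 44.4% there (9 cytosines, 5 at 0%) and P5_LCDM_1 93.75% (8 cytosines). From 102977001 to 102977412 P5_a2iL_1 averaged 3.52% and P5_LCDM_1 5.53%. In the whole tile P5_LCDM_1 was higher than P5_2iL_F by 29.97 points over 26 cytosines (43.3 on the plus and 20.8 on the minus strand).

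The tile after it, chr15:102978001-102979000, differed from muscle by -48.2 points in P5_2iL, -37.5 in P5_2iL_F and -33.3 in P5_LCDM_1 over 8 cytosines. Muscle had 100% on the minus strand and 0% on the plus strand there, over 3 cytosines each, so the strands of 1 library disagreed completely. P5_a2iL_1, with 43.8%, had the same pattern (83.3% on the minus and 0% on the plus strand) and was higher than P5_2iL by 41.96 points and than P5_2iL_F by 31.2. On the plus strand P5_LCDM_1 was higher than muscle by 27.8 points.

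In chr15:102983001-102984000, near the end of Hoxc9 facing Hoxc8, 4 cytosines had 14.3% in muscle, 23.3% in P5_2iL, 46.3% in P5_2iL_F, 65.1% in P5_a2iL_1 and 25.4% in P5_LCDM_1. The differences from muscle of 32.0 points in P5_2iL_F and 50.8 in P5_a2iL_1 had the same sign on both strands, with 2 cytosines each (29.2 and 34.8 points in P5_2iL_F, 44.4 and 57.1 in P5_a2iL_1, plus then minus). With the strands of each CpG pair averaged first, the difference in P5_2iL_F was 17.9 points, under the size called. Outside the naming rule, since only 2 of its cytosines were listed in all 5 libraries, chr15:102979001-102980000 was higher than muscle by 47.1 points in P5_LCDM_1 over 4 cytosines (58.3 on the plus strand over 2 and 48.8 on the minus strand over 1).

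Between Hoxc9 and Hoxc8, chr15:102985001-102986000 was higher than muscle by 33.7 points in P5_2iL, on 6 plus-strand cytosines, and by 29.9 in P5_2iL_F, the latter by 32.3 on the plus and 25 on the minus strand. All 4 teratomas were above muscle (12.5%) there, at 46.2% in P5_2iL, 44.8% in P5_2iL_F, 32.2% in P5_a2iL_1 and 34.0% in P5_LCDM_1 over 6 cytosines.

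Around Hoxc8 a pair of tiles passed 25 points over few cytosines. The tile chr15:102996001-102997000, between Hoxc8 and Hoxc6, had 38.2% in P5_a2iL_1 against 3.64% in muscle over 5 cytosines, of which 4 were of the minus strand and none known to be of the plus strand, and 16.9%, 9.52% and 10% in P5_2iL, P5_2iL_F and P5_LCDM_1. In Hoxc8 itself, chr15:102992001-102993000 had 25% in P5_LCDM_1 against 0% in muscle over 4 cytosines of unknown strand, a value that 1 cytosine made.

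Muscle was the higher library in the stretch between Hoxc11 and Hoxc10 without a large difference. Its 123 cytosines had 20.5% in muscle, 12% in P5_2iL, 11.7% in P5_2iL_F, 13.6% in P5_a2iL_1 and 19.9% in P5_LCDM_1. In its tile chr15:102963001-102964000 (36 cytosines) muscle had 19.7% and the teratomas 3.96% to 8.48%. That gap was on the minus strand, with 32.0% in muscle and 3.01% to 10.96% in the teratomas, while on the plus strand muscle had 5.86% and the teratomas 4.12% to 5.89%. The window of Mir196a-2, which lies between Hoxc10 and Hoxc9, went the same way, with 12.3% in muscle and 4.54%, 2.07%, 8.23% and 7.58% in P5_2iL, P5_2iL_F, P5_a2iL_1 and P5_LCDM_1 over 27 cytosines. There the gap was on the plus strand, with 19.2% in muscle and 3.50% to 12.7% in the teratomas. In muscle 22 of the 27 cytosines were at 0% and 3, all of the plus strand, at 100%. No cytosine was listed within the Mir196a-2 gene itself. On the minus strand muscle had 2.27%, the same as P5_2iL and less than P5_LCDM_1 (9.09%).

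Among the teratomas, P5_2iL and P5_2iL_F did not differ by 25 points in any of 63 tiles, where 4.48% of all tiles did. P5_a2iL_1 differed from P5_2iL in 3 of 61 tiles (10.6% of all tiles), all higher (3.04%), and from P5_2iL_F in 1 of 62 (9.6%), also higher (2.99%). P5_LCDM_1 differed from P5_2iL in 3 of 61 (19.3%), from P5_2iL_F in 3 of 62 (18.1%) and from P5_a2iL_1 in 4 of 61 (13.1%). In either direction each of these counts was below its background share, while the 3 tiles higher in P5_a2iL_1 than in P5_2iL (4.92%) were above the share of all tiles that were higher. The tiles were those of Hoxc9, Hoxc8 and Hoxc4 given above, and in addition chr15:102971001-102972000 in Hoxc10, where P5_LCDM_1 had 33.3% and P5_a2iL_1 0% over 3 cytosines.

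By gene, P5_LCDM_1 differed from P5_2iL and P5_2iL_F in opposite directions along the cluster. Against P5_2iL it was higher at Hoxc10 by 8.15 points and at Hoxc9 by 7.41, and the difference at Hoxc5 was -9.82, with both strands of the same sign in each. Against P5_2iL_F the same genes gave 7.17, 4.95 and -5.60 points. Against P5_a2iL_1 the values were 3.16 at Hoxc10 (7.13 on the plus and -1.79 on the minus strand), -0.38 at Hoxc9 and -7.35 at Hoxc5. P5_LCDM_1 was below P5_a2iL_1 in 7 of 9 genes, in 4 of them on both strands, and above it on both strands in 0. Of all gene windows, 43.6% were higher in P5_LCDM_1 than in P5_a2iL_1. These 3 comparisons share the P5_LCDM_1 library.

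**Figure D5:**
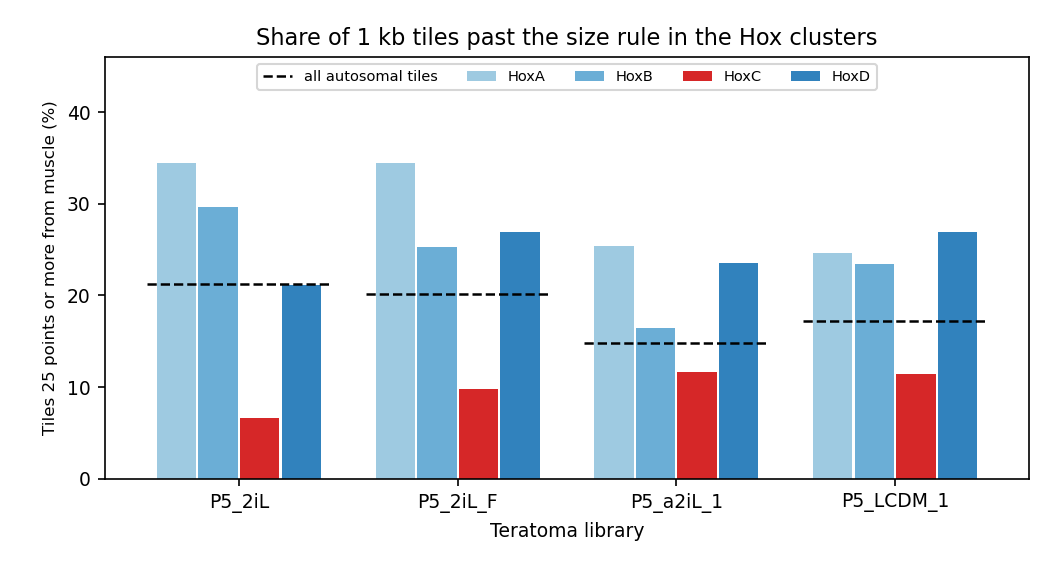
Share (%) of 1 kb tiles that differed from muscle by 25 points or more in each of the 4 Hox clusters, by teratoma, as bars from 0. Dashed lines are the share over all autosomal tiles, and HoxC (red) is at 6.67%, 9.84%, 11.7% and 11.5%, the lowest bar of the 4 in each teratoma.

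The paralogs give the setting, since same-numbered Hox genes of the 4 clusters encode closely related proteins. The share of tiles past 25 points from muscle in P5_2iL, P5_2iL_F, P5_a2iL_1 and P5_LCDM_1 was 34.5%, 34.4%, 25.4% and 24.6% in HoxA, 29.6%, 25.3%, 16.5% and 23.5% in HoxB, and 21.2%, 26.9%, 23.5% and 26.9% in HoxD. HoxC had the lowest share in each teratoma, which was not tested. Of 20 same-numbered paralogs of the HoxC genes, Hoxa4, Hoxa5 and Hoxa6 were higher and Hoxb5 lower than muscle by 25 points or more in P5_2iL and P5_2iL_F, Hoxa5 and Hoxa6 were higher in P5_a2iL_1, and none was past it in P5_LCDM_1. Of the number 6 genes in P5_2iL, Hoxa6 had 67.6%, Hoxc6 16.9% and Hoxb6 13.9%.

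The genes that work with Hox proteins or on their chromatin were also read, in lists by role. None of 9 TALE cofactors (Pbx, Meis and Pknox, which bind DNA together with Hox proteins), of 16 Polycomb genes (such as Ezh2 and Suz12, which keep Hox genes silent) and of 7 measured trithorax and demethylase genes (such as Kmt2a and Kdm6b, which keep them active) differed by 25 points in any of the 10 pairs. Their median differences from muscle lay between 0.14 and 3.60 points. Of all gene windows only 0.436% to 4.36% differed by 25 points in these pairs, and their medians from muscle were 0.92 to 3.23 points. For Hoxc6, the member of widest range, the genes most like it over the 5 libraries among 15483 with 20 or more cytosines were Tmem88b, Slc5a7, Fzd4, Slitrk1 and Rln1, at a root mean square difference of 1.82 to 2.27 points.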

How the data were processed

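Reduced representation bisulfite libraries of 1 muscle and 4 teratomas were used, 1 per group. The authors deposited, per library, the methylation level of each CpG cytosine in percent, strands separately and without read counts. The submitters' processing notes name Trim Galore 0.6.4, Bismark and the build mm10. The sources used here give neither Bismark's version nor settings or a coverage minimum. PCR duplicates cannot be recognised in these values.

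Positions were taken as counted from 1: all 421179 listed positions inside RefSeq promoter sequences then fall on a CG, against 56.2% counted from 0. Strands were inferred from neighbouring positions, which was right for 99.9994% of 358650 positions checked. Levels are unweighted means over cytosines listed in all 5 libraries, and differences are over those listed in both. A difference was called at 25 points with 3 or more cytosines. This size rule replaced the planned Fisher tests, which need counts, and no p-value is given. The strand spread, and strand checks of named tiles, were added after the values were seen. The background is all autosomal tiles and gene windows of the GRCm38.p6 table. Named were all 9 members, the tiles past the rule against muscle (up to 5 per direction, 3 or more cytosines in all 5 libraries), paralogs past it and the 5 genes most like the widest-ranging member. Members and lists were chosen with earlier results of these data known. The size rule was tested on simulated data. Scripts ran in Python 3.11.15 with pandas 2.3.3 and NumPy 2.4.6, and figures came from matplotlib 3.10.9.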

Additional observations from a re-analysis of the deposited data

Results flagged for a closer look

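At Hoxc10 the teratomas went opposite ways from the same muscle library, on both strands: P5_LCDM_1 was higher than muscle by 5.12 points (4.76 on the plus and 4.94 on the minus strand), and P5_2iL differed by -2.01 points (-5.44 and -0.86). With 1 library per group the difference between them was not tested. The muscle strands at Hoxc10 are 10.1% and 17.4%, a gap wider than both differences.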

How the results depend on the processing

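The number of HoxC gene windows past 25 points stayed at 0 in each of the 10 pairs under every alternative run: 20 and 35 points, a minimum of 10 cytosines, the gene body alone, 2000 bp on both sides, cytosines in all 5 libraries, and strand pairs averaged. Counts of tiles moved more, since few tiles were called.

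For tiles against muscle (4 in P5_2iL, 6 in P5_2iL_F, 7 in P5_a2iL_1 and 7 in P5_LCDM_1), 35 points gave 2, 2, 1 and 3, and a minimum of 10 cytosines gave 1, 2, 4 and 2. A minimum of 5 left 4 in P5_LCDM_1. Tiles of 500 bp gave 8 in P5_2iL and 13 in P5_a2iL_1, tiles of 2000 bp gave 3, 2 and 4 in P5_2iL_F, P5_a2iL_1 and P5_LCDM_1, and a shift by 500 bp gave 7 in P5_2iL. The plus strand alone gave 3, 4 and 3 in the last 3 libraries.

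Among teratomas, P5_2iL_F against P5_2iL (0 tiles) gave 1 at 20 points and 2 on the minus strand. P5_a2iL_1 against P5_2iL (3) gave 0 with 10 cytosines, 5 with tiles of 500 bp and 1 on either strand. P5_LCDM_1 against P5_2iL (3) gave 0 at 35 points, 1 with 5 cytosines, 0 with 10, 5 with 500 bp and 1 on the minus strand. P5_a2iL_1 against P5_2iL_F (1) gave 4 at 20 points, 0 at 35 points, 0 with 10 cytosines, 4 when shifted, 5 with 500 bp, and 3 with cytosines in all 5 libraries, on the plus strand and on the minus strand. P5_LCDM_1 against P5_2iL_F (3) gave 1 with 10 cytosines, with 2000 bp and on the minus strand. P5_LCDM_1 against P5_a2iL_1 (4) gave 7 at 20 points, 1 at 35, 1 with 5 cytosines, 0 with 10, 7 with 500 bp, and 2 with 2000 bp and on the minus strand.

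Averaged over tiles in place of cytosines, the cluster had 12.4% (muscle), 13.6% (P5_2iL), 14.99% (P5_2iL_F), 18.6% (P5_a2iL_1) and 13.7% (P5_LCDM_1). Over every listed cytosine it had 10.3%, 11.1%, 11.3%, 14.2% and 11.6% in the same order, so muscle was nearer to the teratomas. With strand pairs averaged it had 9.71%, 10.8%, 11.4%, 14.9% and 11.8%. Muscle stayed lowest and P5_a2iL_1 highest in these.

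Gene levels moved past the strand spread in part. Over every listed cytosine muscle had 17.4% at Hoxc11 and 19.2% at Hoxc4. P5_2iL had 10.6% at Hoxc8, 14.8% at Hoxc6, 17.3% at Hoxc5 and 16.2% at Hoxc4, P5_2iL_F 11.4% at Hoxc5, P5_a2iL_1 13.2% at Hoxc10, 15.5% at Hoxc5 and 17.98% at Hoxc4, and P5_LCDM_1 8.21% at Hoxc5. In gene bodies alone P5_2iL had 4.33% at Hoxc11, 12.7% at Hoxc10 and 24.0% at Hoxc5, P5_2iL_F 25.1% at Hoxc5, and P5_a2iL_1 19.96% at Hoxc10, 17.2% at Hoxc9 and 24.5% at Hoxc5. With 2000 bp on both sides muscle had 15.7% at Hoxc10, P5_2iL 7.65% at Hoxc12, 12.1% at Hoxc10 and 5.96% at Hoxc9, P5_a2iL_1 11.2% and P5_LCDM_1 10.5% at Hoxc12. These alternatives take in other cytosines, and the cause was not tested further.

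Of the named tiles, reversals came on the plus strand alone: chr15:103030001-103031000 gave 0.61, 3.28 and 1.38 points in P5_2iL, P5_2iL_F and P5_LCDM_1 against muscle, and chr15:102978001-102979000 gave 27.8 in P5_LCDM_1. The Hotair tile kept its sign on each strand. Over cytosines in all 5 libraries chr15:103035001-103036000 lost its 3 calls (-10.8, -13.1 and -15.95 points in P5_2iL_F, P5_a2iL_1 and P5_LCDM_1), and chr15:103026001-103027000 gave 15.2 in P5_a2iL_1. With strand pairs averaged chr15:102983001-102984000 gave 17.9 in P5_2iL_F and chr15:102996001-102997000 24.8 in P5_a2iL_1. No paired analysis was possible because each group had 1 library. The unknown depth limits all levels: a level of 0% or 100% at a cytosine may rest on few reads.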
